A study of Mus musculus with 24 samples.

Results

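The genes described here are the matrix metalloproteinases, the Adamts proteinases and their tissue inhibitors in the developing mouse diaphragm. They were chosen by symbol alone: Mmp or Timp followed by a number, or any symbol that starts with Adamts. Of 19351 genes with a value, 49 met this rule: 22 Mmp, 18 Adamts, 5 Adamtsl (Adamts-like) and 4 Timp genes. RefSeq's gene table holds 51 such symbols, and Adamts2 and Mmp15 were not analysed here. RNA came from C57BL/6J embryos at 3 stages, with 8 arrays per stage and 24 in all, and no treatment or mutation is named. The tissue of the first 2 stages, E11.5 and E12.5, was the pleuroperitoneal folds, the mesenchymal ridges from which the diaphragm forms, and that of E16.5 the muscular diaphragm. The tissue was cut by laser capture from transverse (E11.5 and E12.5) or sagittal (E16.5) cryosections, so each array holds whatever cells lay in the cut area. Values are log2 intensities of Affymetrix Mouse Gene 1.0 ST arrays, 1 probe set per gene, and every mean, SD and test rests on n = 8 arrays per stage unless another number is given. The labels do not say whether the 8 samples of a stage came from different embryos, so the p-values measure the spread between these samples only.

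Matrix metalloproteinases are zinc enzymes that cut collagens, elastin and other proteins of the extracellular matrix, and most are made as inactive precursors. Some are secreted, and the membrane-type enzymes stay anchored on the cell, where Mmp14 activates the Mmp2 precursor with the help of Timp2. Adamts proteinases are secreted and carry thrombospondin repeats that hold them to the matrix; several cut versican, the large proteoglycan of embryonic mesenchyme, others trim procollagens or act on fibrillin microfibrils, and Adamts-like proteins have the repeats without the catalytic domain. Timps block the catalytic site, and Timp3 also inhibits several Adamts enzymes. In embryos these enzymes clear and remodel matrix where cells migrate, muscle forms and cartilage turns to bone, and Mmp2 and Mmp14 have been linked to hernia of the diaphragm.

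In the genome, 10 of the Mmp genes form an unbroken run on mouse chromosome 9, in the order Mmp13, Mmp12, Mmp1b, Mmp3, Mmp1a, Mmp10, Mmp8, Mmp27, Mmp20 and Mmp7. Adamts1 lies beside Adamts5 on chromosome 16, and Adamts15 beside Adamts8 on chromosome 9. RefSeq promoter windows (GRCm38.p6, 300 bases, from 250 before the transcript start to 50 after) were found for 34 of the 49 genes. The 150 bases before the start are printed for 5 genes of the run and for 5 genes outside it whose array values are described in the results, because the base composition of the promoters differs between the run and the remaining genes. Capitals mark TATAAA (the TATA box, searched on the gene's strand) and TGANTCA (an AP-1 site), TGTGGT (a Runx site) and GGGCGG (a GC box), these last on both strands, so that ACCACA and CCGCCC are the same motifs read on the other strand. All are written 5′ to 3′ on the gene's strand.

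Mmp13, chr9:7272364-7272513, plus strand: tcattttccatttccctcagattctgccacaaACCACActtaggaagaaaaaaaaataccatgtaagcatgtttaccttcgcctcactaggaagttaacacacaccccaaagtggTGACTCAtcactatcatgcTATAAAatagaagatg
Mmp3, chr9:7445672-7445821, plus strand: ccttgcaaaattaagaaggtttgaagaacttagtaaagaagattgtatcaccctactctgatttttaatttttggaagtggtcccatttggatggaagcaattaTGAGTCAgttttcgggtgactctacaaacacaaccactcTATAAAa
Mmp10, chr9:7502192-7502341, plus strand: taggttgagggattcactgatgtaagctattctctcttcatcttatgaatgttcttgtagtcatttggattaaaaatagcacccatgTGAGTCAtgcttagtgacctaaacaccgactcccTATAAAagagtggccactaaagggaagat
Mmp1a, chr9:7463991-7464140, plus strand: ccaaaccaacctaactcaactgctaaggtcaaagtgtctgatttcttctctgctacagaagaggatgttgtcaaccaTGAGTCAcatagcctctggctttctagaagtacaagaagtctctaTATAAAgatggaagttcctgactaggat
Mmp8, chr9:7558279-7558428, plus strand: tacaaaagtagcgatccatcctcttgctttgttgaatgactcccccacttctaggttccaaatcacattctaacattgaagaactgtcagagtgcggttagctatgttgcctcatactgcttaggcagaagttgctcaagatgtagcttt

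In Mmp13, Mmp3, Mmp10 and Mmp1a an AP-1 site stood upstream of a TATA box. In Mmp13 the AP-1 site began 35 bases and the TATA box 16 bases before the start, and a Runx site lay further upstream. The window of Mmp8 held none of the 4 motifs. The genes outside the run showed another picture.

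Mmp14, chr14:54431448-54431597, plus strand: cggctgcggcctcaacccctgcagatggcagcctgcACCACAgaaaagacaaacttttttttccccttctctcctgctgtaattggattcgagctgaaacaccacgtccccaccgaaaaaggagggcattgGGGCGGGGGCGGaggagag
Adamts1, chr16:85803114-85803263, minus strand: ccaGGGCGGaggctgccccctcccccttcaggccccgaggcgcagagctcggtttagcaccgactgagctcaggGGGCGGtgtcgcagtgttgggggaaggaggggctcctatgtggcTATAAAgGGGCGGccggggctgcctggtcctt
Adamts9, chr6:92943535-92943684, minus strand: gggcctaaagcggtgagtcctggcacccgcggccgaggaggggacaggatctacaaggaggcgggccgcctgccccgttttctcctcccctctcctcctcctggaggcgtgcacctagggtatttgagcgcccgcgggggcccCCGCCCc
Adamts18, chr8:113848840-113848989, minus strand: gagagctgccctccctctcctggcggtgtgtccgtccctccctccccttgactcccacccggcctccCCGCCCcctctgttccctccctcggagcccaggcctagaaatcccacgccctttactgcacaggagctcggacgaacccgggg
Timp2, chr11:118355412-118355561, minus strand: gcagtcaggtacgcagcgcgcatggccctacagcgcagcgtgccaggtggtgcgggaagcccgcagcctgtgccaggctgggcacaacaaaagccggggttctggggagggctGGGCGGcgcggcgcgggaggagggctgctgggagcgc

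Each of these 5 windows held at least 1 GC box and no AP-1 site, and of the 5 only Adamts1 had a TATA box. Over the whole run, 8 of 10 genes had a TATA box and an AP-1 site in 1 window, and 0 of the 24 other genes of the family with a window had an AP-1 site. Among all 32851 RefSeq windows of this length, 0.995% held both motifs, 8.32% a TATA box, 7.81% an AP-1 site, 16.8% a Runx site and 35.7% a GC box. A GC box was found in 0 of 12 windows of the run and in 20 of 25 windows of the other genes. CG dinucleotides numbered 0 to 7 per window in the run, with a median of 1, and 2 to 46 in the other genes, with a median of 20, against a median of 7 over all windows. These matches describe letters and do not show that a factor binds there. Windows of neighbouring genes that arose by duplication share ancestry, so they are not independent.

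**Figure D1:**
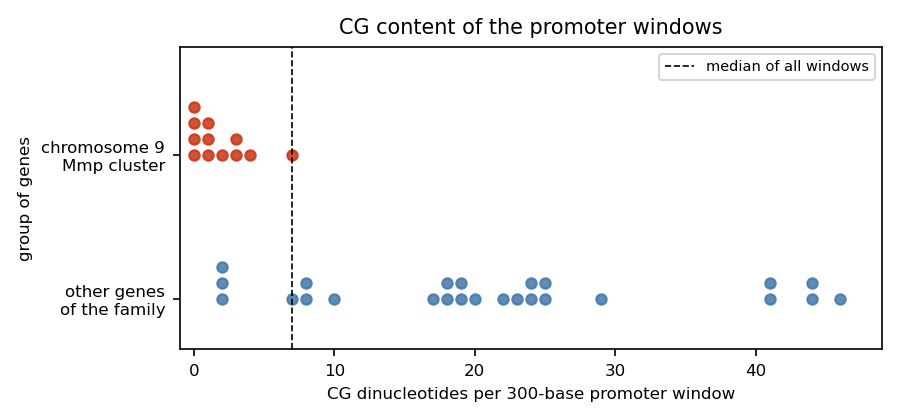
Number of CG dinucleotides in each 300-base RefSeq promoter window (x axis), for the 10 genes of the chromosome 9 run (12 windows, 0 to 7) and the other 24 genes of the family with a window (25 windows, 2 to 46). Each point is 1 window, stacked where counts are equal, and the dashed line is the median of all windows, 7.

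A gene was taken as lying at background at a stage where over 4 of its 8 arrays fell below their own lower quartile over all genes, which was 6.40 to 6.64. By this rule 9 of the 49 genes were at background at all 3 stages: Mmp3, Mmp8, Mmp12, Mmp1a, Mmp1b, Mmp20 and Mmp27 of the chromosome 9 run, Mmp25 and Timp4. Mmp13 and Adamtsl3 were at background at E11.5 and E12.5 only, and 38 genes were at background at no stage. Of the run, Mmp10 (6.75 to 7.28 over all 24 arrays) and Mmp7 (6.55 to 7.14) alone were never at background. A change of a gene at background at either stage is given as a value on the array and not as a change of its transcript.

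The makeup of the captured tissue moved with stage. The mean of 12 skeletal muscle markers was 8.21 to 9.35 at E11.5, 8.35 to 11.56 at E12.5 and 12.19 to 12.69 at E16.5. The mean of 11 markers of fold mesenchyme and muscle connective tissue was 9.29 to 9.65, 9.16 to 9.53 and 8.09 to 8.52, and 9 of the 11 fell from E12.5 to E16.5. Hepatocyte markers (12 genes) ran from 6.63 to 6.90, from 7.50 to 11.71 and from 9.40 to 11.57, with E12.5 replicates 2 and 4 the highest of their stage. Endothelial markers (8 genes) lay at 7.85 to 8.34, 7.72 to 8.34 and 8.28 to 9.30, and lung epithelial markers (7 genes) at 7.25 to 7.50, 7.15 to 7.36 and 7.60 to 8.54. In such bulk tissue, fewer cells of a type and less RNA per cell cannot be told apart.

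Between E11.5 and E12.5 none of the 49 genes passed the threshold of adjusted p under 0.05 in limma's test, where 0.388% of all genes did. Without adjustment, 3 genes were higher and 5 lower at p under 0.05, or 6.12% and 10.2% of the 49, against 6.27% and 8.14% of all genes. The median change was -0.07 on the log2 scale for the 49 genes and -0.03 for all genes. Without E11.5 replicate 2 it was -0.04, against -0.02, and with arrays centred on the 75th percentile -0.14, against -0.10. The nearest to the threshold was Adamts1, at -0.60 ± 0.14 (SE, adjusted p = 0.0629). Adamts1 did pass in 9 of the 41 alternative settings, with adjusted p between 0.0259 and 0.0495, among them the fits without E12.5 replicate 2 (adjusted p = 0.0324) or E16.5 replicate 6 (adjusted p = 0.0495). Adamts12, a proteinase that cuts cartilage oligomeric matrix protein, stood at +0.54 ± 0.15 (adjusted p = 0.118).

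Between E12.5 and E16.5, 17 of the 49 genes passed, or 34.7%, against 27.1% of all genes. The direction was mostly downward: 13 genes (26.5%) were lower, against 15.6% of all genes, and 4 (8.16%) were higher, against 2223 of the 19351 genes. Of the 49 genes, 5 (10.2%) passed and fell by 2-fold or more, against 1.76% of all genes. Of the same 49, 0 passed and rose by 2-fold or more, against 3.63% of all genes. Mmp13 stood at 2.23-fold without passing the test. The stages did not overlap in 6 genes (12.2%, all lower at E16.5), against 10.1% of all genes. The median change of the 49 was -0.08, against -0.02 for all genes, and -0.05 without E16.5 replicate 3. Without the dimmest 50% of genes it was -0.42 over the 19 genes left, against -0.09 for all genes left. This filter removed all 4 higher genes (Adamts20, Mmp8, Mmp9 and Timp4) and, of the 13 lower ones, only Adamts15. Adamts18 and Adamts19 stayed, with E16.5 means of 6.75 and 7.11. The filtered median thus depends on which genes were kept and does not measure the direction of the family. With a covariate for liver markers (the average of the hepatocyte list) 11 of the 49 passed, and 4 passed a test against a change of 1.5-fold: Mmp2, Adamts1, Adamts9 and Adamts18. By role, of 7 proteoglycan-cleaving Adamts genes 4 fell and 1 rose, of 9 other Adamts proteinases 3 fell, and of 5 membrane-type metalloproteinases 2 fell. Neither procollagen N-proteinase and none of the 5 Adamts-like genes passed.

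Between E11.5 and E16.5, 23 of the 49 genes passed (46.9%), against 33.5% of all genes. Of these 17 (34.7%) were lower, against 19.6%, and 6 (12.2%) higher, against 13.8%. Mmp3 and Mmp27 of the lower genes and Mmp8 and Timp4 of the higher ones lay at background at both stages. Adamtsl3, also among the higher ones, lay at background at E11.5. The stages did not overlap in 7 genes (14.3%), against 9.08%, and 4 genes (8.16%) were at least 2-fold lower, against 1.95%. The comparison uses the same E16.5 arrays as the one with E12.5, so the results of each are given side by side and neither is support for the other.

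**Figure D2:**
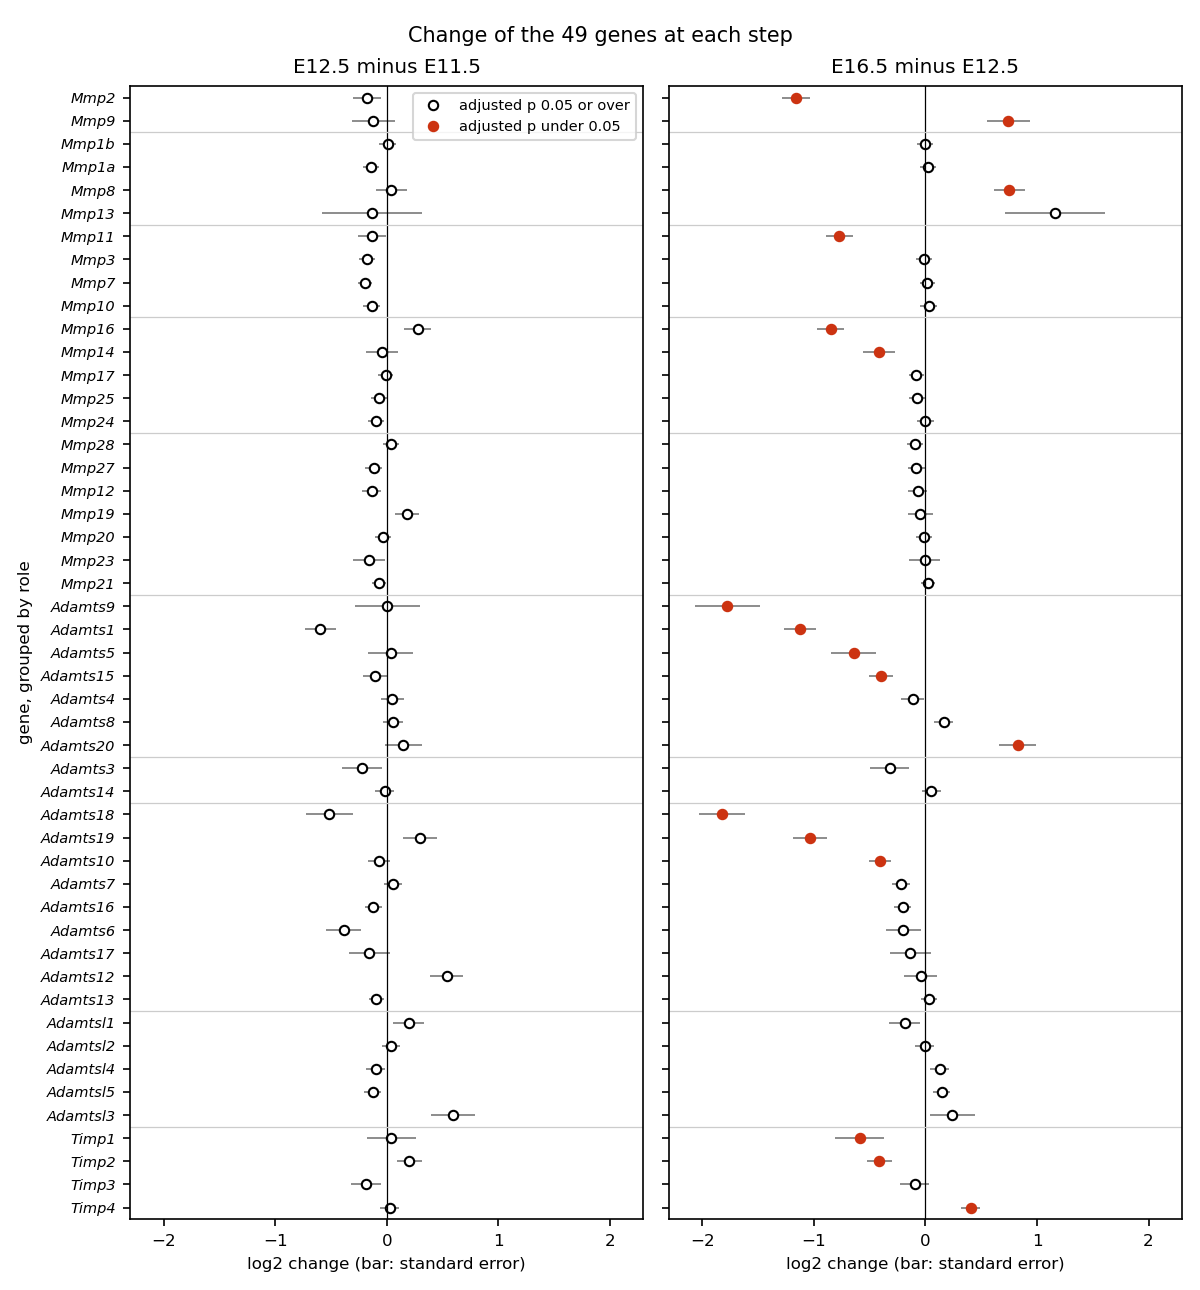
Log2 change of each of the 49 genes (y axis, grouped by role) from E11.5 to E12.5 (left) and from E12.5 to E16.5 (right), with standard errors as bars and n = 8 arrays per stage. Filled points passed an adjusted p of 0.05 in limma's test over 19351 genes: none on the left, and 17 on the right, 13 of them below 0.

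Mmp2, gelatinase A, which cuts denatured and basement membrane collagens, fell late. Its lowest, median and highest values were 10.61, 11.23 and 11.52 at E11.5, 10.63, 10.99 and 11.10 at E12.5, and 9.31, 9.80 and 10.16 at E16.5. All 8 E16.5 arrays thus lay below all 16 arrays of the folds, and the folds overlapped each other. Mmp2 fell by 1.16 ± 0.13 from E12.5 to E16.5 (2.23-fold lower, adjusted p = 9.65e-08) and by 1.33 ± 0.13 from E11.5 (adjusted p = 6.53e-09). The step within the folds was -0.17 ± 0.13 (adjusted p = 0.527).

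Mmp14, the membrane-type enzyme that activates Mmp2, moved less. It ran from 9.16 over a median of 9.78 to 10.36 at E11.5, from 9.21 over 9.72 to 9.91 at E12.5, and from 8.63 over 9.34 to 9.46 at E16.5. The stages overlapped, and the lowest array was E16.5 replicate 7. Mmp14 fell by 0.42 ± 0.14 from E12.5 to E16.5 (adjusted p = 0.0332) and by 0.46 ± 0.14 from E11.5 (adjusted p = 0.0161). The first of these calls was lost without any 1 of E12.5 replicates 1, 3, 4 and 8 and E16.5 replicates 6 and 7, with adjusted p of 0.0515 to 0.0792 and changes of -0.41 to -0.33. It was also lost when the arrays were quantile-normalized again or centred on the 75th percentile. With the hepatocyte list as a covariate both calls were lost. Both calls were lost without E16.5 replicates 5, 6 and 7 together (-0.32 with adjusted p = 0.15, and -0.36 with adjusted p = 0.0829). Without E16.5 replicates 1 to 4 the change from E12.5 was -0.53 (adjusted p = 0.0552), and without replicates 5 to 8 it was -0.30 (adjusted p = 0.228).

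Mmp16, another membrane-type enzyme, had values of 8.10, 8.55 and 8.80 (lowest, median, highest) at E11.5, 8.55, 8.74 and 9.09 at E12.5, and 7.29, 7.97 and 8.20 at E16.5. E16.5 lay wholly below E12.5 and overlapped E11.5. The fall from E12.5 was -0.85 ± 0.12 (adjusted p = 3.59e-06) and from E11.5 -0.57 ± 0.12 (adjusted p = 4.25e-04). The remaining membrane-type genes were not called in either comparison with E16.5: the glycolipid-anchored Mmp17 stood at -0.08 ± 0.07, Mmp24 at 0.00 ± 0.07, and Mmp25 lay at background.

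Mmp11, stromelysin 3, is released already active and is typical of mesenchyme beside growing epithelium. It lay at 8.01, 8.51 and 8.95 at E11.5, at 8.03, 8.44 and 8.67 at E12.5, and at 7.30, 7.65 and 7.93 at E16.5. Here too the E16.5 arrays were below every array of the folds. It fell by 0.77 ± 0.12 from E12.5 (adjusted p = 2.20e-05) and by 0.91 ± 0.12 from E11.5 (adjusted p = 1.97e-06).

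The largest falls of the family were in Adamts genes. Adamts18, a proteinase whose substrates are less well known, had lowest, median and highest values of 8.48, 9.02 and 9.93 at E11.5, 7.64, 8.63 and 9.45 at E12.5, and 6.52, 6.70 and 7.05 at E16.5. The E16.5 arrays were below all fold arrays, and 1 of the 8 lay under its lower quartile. Adamts18 fell by 1.82 ± 0.21 from E12.5 (3.54-fold lower, adjusted p = 2.00e-07) and by 2.34 ± 0.21 from E11.5 (5.05-fold lower, adjusted p = 2.17e-09). Between the folds it stood at -0.51 ± 0.21 (adjusted p = 0.267).

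Adamts9, a secreted versican-cutting enzyme and close relative of Adamts20, ran from 9.78 over 11.51 to 11.81 at E11.5, from 10.75 over 11.28 to 11.48 at E12.5, and from 8.13 over 9.61 to 10.63 at E16.5. The E16.5 arrays lay below all E12.5 arrays. They overlapped E11.5 through E11.5 replicate 8 (9.78), the lowest of its stage, which lay below E16.5 replicates 2, 5 and 7 (9.84, 10.63 and 9.80). The change was -1.77 ± 0.29 from E12.5 (3.42-fold lower, adjusted p = 4.30e-05) and -1.77 ± 0.29 from E11.5 (adjusted p = 3.74e-05). The gene has 6 probe sets on the array, and all 6 were lower at E16.5 than at E12.5, by -2.07 to -1.06.

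Adamts1 is a further versican-cutting enzyme and is also known to curb vessel growth. Its values were 10.17, 10.47 and 10.72 at E11.5, 9.36, 9.87 and 10.32 at E12.5, and 8.29, 8.83 and 9.14 at E16.5. The folds overlapped each other, and E16.5 lay below both. Adamts1 fell by 1.12 ± 0.14 from E12.5 (2.17-fold lower, adjusted p = 1.00e-06) and by 1.72 ± 0.14 from E11.5 (3.29-fold lower, adjusted p = 6.10e-10). Its neighbour on chromosome 16, Adamts5, which cuts versican and aggrecan, lay at 7.82 to 8.48 at E11.5, 7.68 to 9.18 at E12.5 and 6.97 to 8.33 at E16.5, with overlap throughout. Adamts5 fell by 0.64 ± 0.20 from E12.5 (adjusted p = 0.0191) and by 0.61 ± 0.20 from E11.5 (adjusted p = 0.0231). The call against E11.5 was lost without E16.5 replicate 2 (adjusted p = 0.0545) or replicate 5 (adjusted p = 0.0516), and both calls without E16.5 replicates 1 to 4 (-0.42 with adjusted p = 0.292, and -0.39 with adjusted p = 0.283). With the hepatocyte list as a covariate the call against E12.5 was lost and the change from E11.5 turned positive.

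**Figure D3:**
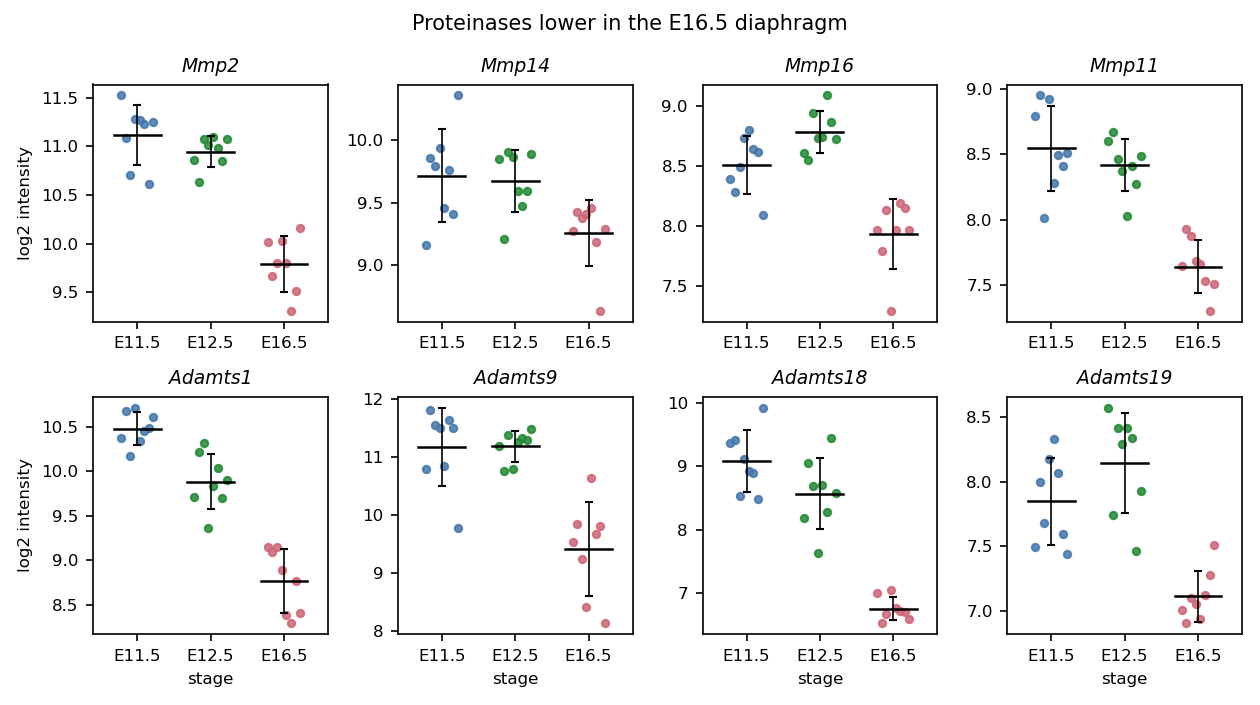
Log2 intensity of 8 proteinase genes that fell from E12.5 to E16.5 (y axis, its range set per gene), by stage (x axis). Each point is 1 array, and the line and bar are the mean and SD of 8 arrays. For Mmp2, Mmp11, Adamts1 and Adamts18 every E16.5 array lies below every fold array; Mmp14 overlaps.

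Adamts19, whose substrates are also less well known, spanned 7.44 to 8.33 in the E11.5 arrays, 7.47 to 8.57 at E12.5 and 6.90 to 7.51 at E16.5, so that the folds overlapped widely and E16.5 met both at the edge. The changes were -1.03 ± 0.15 from E12.5 (adjusted p = 9.46e-06) and -0.73 ± 0.15 from E11.5 (adjusted p = 5.06e-04). Smaller falls from E12.5 were those of Adamts10, which acts with fibrillin microfibrils (-0.41 ± 0.10, adjusted p = 0.00262), and Adamts15, a versican-cutting enzyme (-0.39 ± 0.11, adjusted p = 0.00754). Both were lower against E11.5 as well, at -0.48 and -0.50. Without E16.5 replicates 1 to 4 the call of Adamts15 against E12.5 was lost (adjusted p = 0.0617). With the hepatocyte list as a covariate Adamts10 and Adamts15 lost their calls in both comparisons.

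For some genes the threshold was passed against E11.5 and not against E12.5. Adamts6, a regulator of fibrillin microfibrils, stood at -0.59 ± 0.16 (adjusted p = 0.00561), and Adamts16 at -0.32 ± 0.08 (adjusted p = 0.00177). Adamts3, a procollagen N-proteinase that also takes part in the processing of vascular endothelial growth factor C, stood at -0.54 ± 0.18 (adjusted p = 0.0206). From E12.5 the same genes were at -0.20, -0.20 and -0.32, with adjusted p of 0.417, 0.0507 and 0.206. Of the 16 probe sets of Adamts3, 14 were lower at E16.5 than at E12.5, with a median change of -0.11, but 9 of the 16 lay below the lower quartile in at least 12 of the 24 arrays. The difference between the changes from E11.5 and from E12.5 is the step within the folds, which none of these genes passed. Adamts12 was higher at E16.5 than at E11.5 by 0.49 ± 0.15 (adjusted p = 0.0123). Without E16.5 replicates 1 to 4 the calls of Adamts6 (-0.40, adjusted p = 0.145) and Adamts3 (-0.57, adjusted p = 0.0941) were lost, and without replicates 5 to 8 those of Adamts3 (-0.52, adjusted p = 0.113) and Adamts12 (+0.39, adjusted p = 0.129). The matrilysin Mmp7 was lower by -0.18 ± 0.07 (adjusted p = 0.0404), a call lost without any 1 of E11.5 replicates 1, 2, 5, 6 and 8 and E16.5 replicates 1, 2, 6 and 7 (adjusted p of 0.0586 to 0.0918). Mmp3 and Mmp27 also passed, at -0.19 and -0.20, but lay at background at every stage. The call of Mmp3 was lost without any 1 of E11.5 replicates 1, 2, 5 and 7 and E16.5 replicates 2, 4, 5, 6, 7 and 8 (adjusted p of 0.0516 to 0.0927). That of Mmp27 was lost without any 1 of E11.5 replicates 2, 5, 7 and 8, E12.5 replicates 1 to 8 and E16.5 replicates 2, 3, 4, 6, 7 and 8 (adjusted p of 0.0506 to 0.108).

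Adamts20, which cuts versican and is needed for pigment cells to spread in the skin, was the main exception to the downward direction. It lay at 6.81, 7.12 and 7.23 at E11.5, at 6.80, 7.27 and 7.49 at E12.5, and at 7.46, 7.96 and 8.76 at E16.5. E16.5 was above every E11.5 array and overlapped E12.5 at the edge. The gene rose by 0.83 ± 0.17 from E12.5 (1.77-fold, adjusted p = 4.17e-04) and by 0.98 ± 0.17 from E11.5 (1.97-fold, adjusted p = 5.15e-05). Within E16.5 it was uneven: replicates 1 to 4 lay at 8.09 to 8.76 and replicates 5 to 8 at 7.46 to 7.84. Without replicates 1 to 4 the rise from E12.5 was 0.37 (adjusted p = 0.0279), and without replicates 5 to 8 it was 1.28 (adjusted p = 1.38e-07). The labels give no reason for this division, which was seen in the data. Of the 49 genes, 3 did not overlap between these sets (6.12%, against 11.6% of all genes): Adamts20, Adamts1 (means of 9.07 and 8.46) and Adamtsl4 (8.34 and 8.08), each higher in replicates 1 to 4. The mean of the endothelial markers divided likewise, at 8.99 to 9.30 in replicates 1 to 4 and 8.28 to 8.67 in replicates 5 to 8. That of the skeletal muscle markers was 12.19 to 12.38 in replicates 5 to 8 and higher in each of replicates 1 to 4. The fold mesenchyme, hepatocyte and lung epithelial lists overlapped between the sets. The part of tissue makeup in the division of these genes was not tested. Adamts1 was lower than at E12.5 with either set left out (-1.42 and -0.82, adjusted p of at most 1.27e-04).

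Mmp9, gelatinase B, an enzyme of neutrophils and osteoclasts, rose. Its values were 6.50, 6.76 and 6.91 at E11.5, 6.33, 6.64 and 7.08 at E12.5, and 6.43, 7.30 and 8.64 at E16.5. The highest array was E16.5 replicate 5, and E16.5 replicates 3 (7.04), 4 (6.92) and 8 (6.43) lay within the range of the folds. The changes were +0.74 ± 0.19 from E12.5 (adjusted p = 0.00484) and +0.62 ± 0.19 from E11.5 (adjusted p = 0.0151). Both calls were lost with the hepatocyte list as a covariate. Mmp8, the neutrophil collagenase, stood at +0.75 ± 0.14 from E12.5 (adjusted p = 1.45e-04), but was at background at each stage and at E16.5 in 6 of 8 arrays. By stage, the list of 11 neutrophil and mast cell markers was also higher at E16.5: its mean was 6.28 to 6.58 at E11.5, 6.41 to 7.03 at E12.5 and 7.59 to 8.99 at E16.5. Of that list 9 genes rose from E12.5 to E16.5, among them S100a8 and S100a9, and Cma1 and Mcpt4 stayed at background at E16.5. Array by array the order matched in part. E16.5 replicate 5 had the highest Mmp9 (8.64) and Mmp8 (6.88) and the second-highest list mean (8.84). Replicate 1 had the second-highest Mmp9 (7.76) and Mmp8 (6.70) with a list mean of 7.98. Replicate 3 had the highest list mean (8.99), with Mmp9 at 7.04 and Mmp8 at 6.45. The part of these cells in the values of Mmp9 and Mmp8 was not tested.

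Mmp13, collagenase 3, which hypertrophic cartilage and osteoblasts make, was high in a few arrays. It lay between 6.01 and 6.52 at E11.5 and between 6.14 and 6.40 at E12.5, at background at both. At E16.5 it was 11.07 in replicate 5, 8.13 in replicate 6 and 7.75 in replicate 7, and the remaining 5 arrays lay at 6.15 to 6.68. The stage as a whole stood at +1.16 ± 0.45 above E12.5 (adjusted p = 0.0568), short of the threshold. It passed without any 1 of E16.5 replicates 1, 2, 3, 4 and 8 (+1.26 to +1.34, adjusted p of 0.0286 to 0.0496), and without replicate 5 at the lower value of +0.63 (adjusted p = 0.0295). Ibsp, bone sialoprotein, was 11.17, 10.63 and 9.84 in the same 3 arrays and 5.26 to 9.48 in the others, and the mean of the 8 cartilage and bone markers, Ibsp among them, was 7.54 to 7.90, against 6.87 to 7.43. Without Ibsp that mean was 7.18 to 7.44 in the 3 arrays and 7.09 to 7.27 in the others, which overlap. Of the 8 markers 1 rose from E12.5 to E16.5, Ibsp (+2.82 ± 0.63, adjusted p = 0.00123), and 1 fell, Sox9 (-0.92 ± 0.11, adjusted p = 3.90e-07). The cartilage genes Acan and Matn1 were at background at E16.5. Col10a1 of the 8 markers was 8.25 in E16.5 replicate 5, against 6.86 to 7.24 in the other E16.5 arrays. Sp7 was 7.64 there, against 6.73 to 7.05. Ibsp and Matn1 were also highest of the stage in that array, and Col2a1, Col9a1, Acan and Sox9 were not. In replicate 5, where Mmp9 was also highest, the mean of 7 osteoclast markers was 8.23, against 6.98 to 7.30 in the other 7 arrays. Dcstamp and Atp6v0d2 of that list were above the lower quartile in replicate 5 (7.88 and 6.89) and below it in most of the other arrays (6.16 to 6.57 and 4.11 to 4.97). Acp5 and Ctsk were also highest of the stage in replicate 5 (9.82 and 11.14). Calcr was highest in replicate 3 (7.13), and Ocstamp (7.49) and Tnfrsf11a (7.42) in replicate 7.

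Leaving out the E16.5 arrays 5, 6 and 7, chosen after the values were seen as the highest of the stage in both Mmp13 and Ibsp, brought Mmp13 to +0.20 against E12.5 (adjusted p = 0.156). As the choice rested on Mmp13 itself, this drop was fixed by it and is not a test. Mmp9 stood then at +0.42 against E12.5 (adjusted p = 0.0428) and at +0.30 against E11.5 (adjusted p = 0.136), which is past the threshold for the first comparison only. Replicates 5, 6 and 7 were also high in Mmp9 (8.64, 7.61 and 7.47), and of the others only replicate 1 (7.76) was as high. The lower values of Mmp9 without replicates 5, 6 and 7 are thus partly fixed by the choice and are not a test. Among the 49 genes the count of calls against E12.5 was 17 with and 17 without these arrays, and 16 genes were in both. Mmp2 (-1.01), Adamts1 (-0.95), Adamts18 (-1.81) and Adamts9 (-2.15) kept their calls. The part of bone tissue in the E16.5 values of Mmp13 and Mmp9 was not tested.

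**Figure D4:**
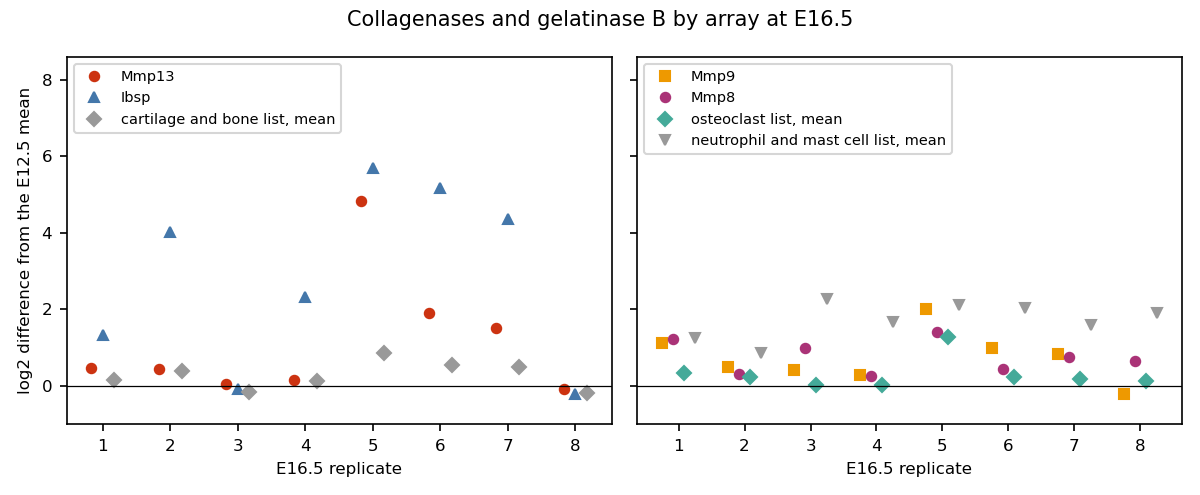
Log2 difference of each of the 8 E16.5 arrays (x axis, by replicate number) from the mean of the E12.5 arrays (y axis), for Mmp13 with Ibsp and the mean of 8 cartilage and bone markers (left), and for Mmp9 and Mmp8 with the means of 7 osteoclast and 11 neutrophil and mast cell markers (right). Mmp13 and Ibsp are both high in replicates 5, 6 and 7. Ibsp is also raised in replicates 1, 2 and 4 (log2 intensities of 6.79, 9.48 and 7.80), where Mmp13 is 6.68, 6.67 and 6.37. Mmp9 and the mean of the osteoclast markers are highest in replicate 5.

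Among the inhibitors, Timp2, which also takes part in Mmp2 activation, lay at 9.62, 10.01 and 10.15 at E11.5, at 9.75, 10.19 and 10.53 at E12.5, and at 9.44, 9.76 and 9.99 at E16.5. The stages overlapped. Timp2 fell by 0.41 ± 0.11 from E12.5 to E16.5 (adjusted p = 0.00756). Against E11.5 it stood at -0.21 ± 0.11 (adjusted p = 0.162). The call against E12.5 was lost without E16.5 replicates 5 to 8 (-0.36, adjusted p = 0.0637). It was also lost with the hepatocyte list as a covariate.

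Timp1, a secreted inhibitor of most soluble metalloproteinases, lay at 7.36 to 8.80 at E11.5, 7.47 to 8.66 at E12.5 and 6.99 to 8.54 at E16.5, with wide overlap. It stood at -0.59 ± 0.22 from E12.5 (adjusted p = 0.0464) and at -0.55 ± 0.22 from E11.5 (adjusted p = 0.0558). The first call was lost without any 1 of E11.5 replicates 1, 4 and 6, E12.5 replicates 1, 4, 5, 6, 7 and 8, and E16.5 replicates 1, 2, 3, 6 and 7 (adjusted p of 0.0514 to 0.102). Against E11.5 it passed without E11.5 replicate 3 (-0.64, adjusted p = 0.0281), E16.5 replicate 5 (-0.70, adjusted p = 0.00689) or E16.5 replicate 8 (-0.60, adjusted p = 0.0458). Timp3, which binds to the matrix, had medians of 10.14, 10.00 and 9.89 and was not called in any comparison of all 24 arrays. Without E11.5 replicate 8 its change from E11.5 to E16.5 was -0.36 (adjusted p = 0.0313), against -0.28 with it (adjusted p = 0.101). Its change from E12.5 to E16.5 was -0.09 ± 0.13, with a 95% confidence interval of -0.36 to 0.17. Timp4 stood at +0.41 ± 0.09 from E12.5 (adjusted p = 6.33e-04) but was at background at every stage, at E16.5 in 5 of 8 arrays.

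Reck, a membrane-anchored inhibitor of Mmp2, Mmp9 and Mmp14, lay at 9.37, 9.94 and 10.39 at E11.5, at 9.27, 9.47 and 9.95 at E12.5, and at 8.33, 8.81 and 9.28 at E16.5. E16.5 was below every E11.5 array and met E12.5 at the edge. It fell by 0.72 ± 0.14 from E12.5 (adjusted p = 3.84e-04) and by 1.11 ± 0.14 from E11.5 (adjusted p = 1.20e-06).

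**Figure D5:**
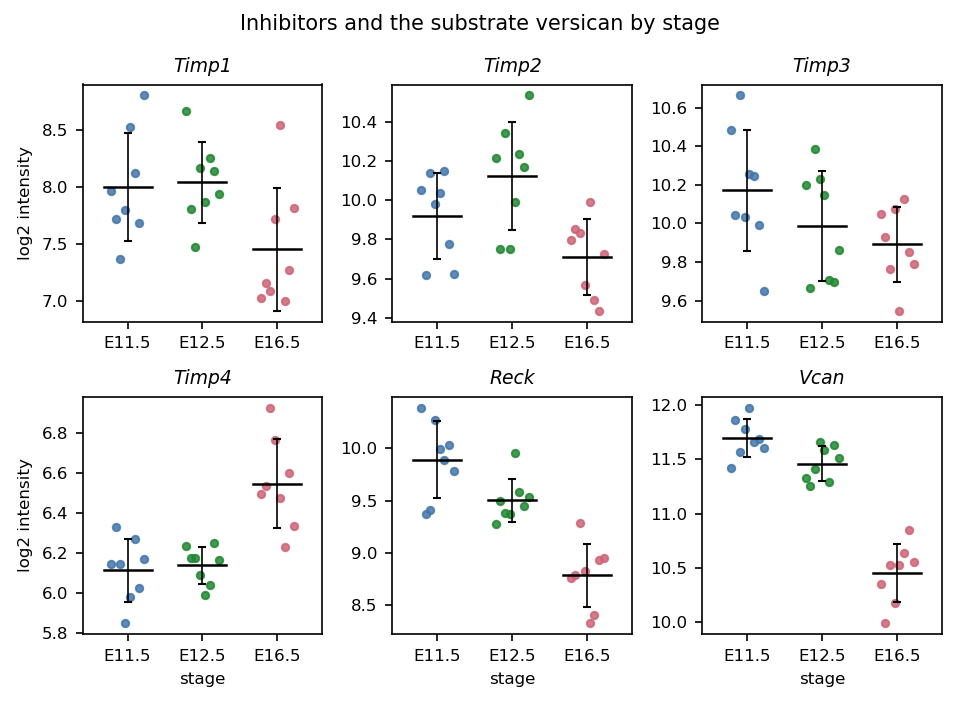
Log2 intensity of the 4 Timp genes, of the membrane inhibitor Reck and of the substrate Vcan (y axis, its range set per gene) by stage (x axis). Each point is 1 array, and the line and bar are the mean and SD of 8 arrays. Timp3 overlaps at all stages, Timp4 lies at background throughout, and every E16.5 array of Vcan is below every fold array.

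Most of the genes not yet described did not pass in any comparison, Adamtsl3 being the exception. Their changes from E12.5 to E16.5 lay between -0.22 (Adamts7, adjusted p = 0.0543) and +0.16 (Adamts8, adjusted p = 0.182) for the Adamts genes Adamts4, Adamts7, Adamts8, Adamts13, Adamts14 and Adamts17. Adamts13 is the enzyme that cuts von Willebrand factor, and Adamts14 a procollagen N-proteinase. Adamts17, which like Adamts10 acts in the fibrillin system, stood at -0.14 ± 0.18, and 4 of its 5 probe sets were lower. Of the Adamts-like genes, Adamtsl1 (-0.18), Adamtsl2 (-0.01), Adamtsl4 (+0.13) and Adamtsl5 (+0.14) were not called. Adamtsl3 was above every E11.5 array at E16.5 (6.40 to 7.24 against 5.47 to 6.07, +0.83 ± 0.20, adjusted p = 0.00197), but lay at background at E11.5. Without E16.5 replicates 1 to 4 it stood at +0.70 (adjusted p = 0.052). Among the metalloproteinases, Mmp10, Mmp17, Mmp19, Mmp21, Mmp23, Mmp24 and Mmp28 were not called, with values from -0.09 (Mmp28) to +0.03 (Mmp10) from E12.5 to E16.5. Mmp12, Mmp1a, Mmp1b, Mmp20 and Mmp25 lay at background.

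The genes that start, anchor or clear these enzymes moved in both directions. Of 19 activators and surface regulators, 5 rose and 3 fell from E12.5 to E16.5, or 26.3% and 15.8%, with a median change of +0.09. Of all 19351 genes 2223 rose and 15.6% fell, with a median of -0.02. The fall of Lrp1, the endocytic receptor that takes up proteinases bound to their inhibitors, was -0.59 ± 0.09 (adjusted p = 1.47e-05), and that of Pcsk5, a proprotein convertase, was -0.36 ± 0.09. The rises were those of Cav1, the main protein of caveolae (+2.64 ± 0.24), Cd44, the hyaluronan receptor that can hold Mmp9 and Mmp14 at the surface (+1.15 ± 0.11), Cldn1 (+1.15 ± 0.20), and the broad plasma proteinase inhibitors A2m (+1.12 ± 0.23) and Pzp (+2.28 ± 0.58). Pzp, a product of liver, was 11.63 in E12.5 replicate 2, where the hepatocyte list was higher than in any other array, 6.50 to 6.82 in the other E12.5 arrays, and 7.27 to 11.00 at E16.5. The part of liver cells in its rise was not tested. The convertase Furin stood at +0.23 ± 0.13 (adjusted p = 0.197), and Pcsk6 and Pcsk7 were not called. Basigin (Bsg), an inducer of metalloproteinases, was at +0.13, and Itgav, Itgb3, Spock1, Spock2, Spock3, Tfpi2 and Papln did not pass.

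In the plasminogen system, which activates several metalloproteinase precursors, Plat, tissue plasminogen activator, fell by 0.83 ± 0.19 and Plau, urokinase, rose by 0.68 ± 0.19, 1 gene each way of 6 measured. Of 10 Adam genes, whose membrane proteins include enzymes that shed surface proteins, 4 fell (40%) and 1 rose (10%). Adam19 (-0.94), Adam10 (-0.58), Adam22 (-0.57) and Adam12 (-0.55) fell and Adam33 (+0.30) rose. Of 7 astacin-type procollagen proteinases and enhancers, Tll1 (-0.75) and Bmp1 (-0.43) fell (28.6%). Among all 19351 genes 15.6% fell and 2223 rose.

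Genes of the matrix that these enzymes act on moved in both directions. Of 13 fibrillar, basement membrane and type VI collagens, 10 rose from E12.5 to E16.5 (76.9%) and none fell. Among all 19351 genes 2223 rose and 15.6% fell. The largest rises of the collagens were those of Col6a1 (+1.29), Col6a3 (+0.93), Col4a1 (+0.90), Col6a2 (+0.87) and Col4a2 (+0.77). Of 18 proteoglycan and glycoprotein substrates, 5 rose (27.8%) and 4 fell (22.2%, against 15.6% of all genes), with a median change of -0.01, against -0.02. Vcan, versican, had values of 11.42, 11.68 and 11.98 at E11.5, 11.26, 11.46 and 11.66 at E12.5, and 9.99, 10.53 and 10.85 at E16.5, so that E16.5 lay below both folds. It fell by 1.01 ± 0.10 (2.01-fold lower, adjusted p = 3.34e-08). Ltbp1, which stores latent TGF-beta in the matrix, fell by 1.14 ± 0.11, Fn1, fibronectin, by 0.51 ± 0.08 and Fbn2 by 0.34 ± 0.10. Thbs2 (+1.68), Dcn, decorin (+1.26), Lamc1 (+0.80), Eln, elastin (+0.45), and Lamb1 (+0.39) rose.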

How the data were processed

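The authors deposited 1 log2 intensity per probe set and array, made with RMA, Affymetrix Expression Console 1.1 and R 2.9.2 per the submitters' processing notes, which do not give the role of each. The log2 scale was inferred from values of 2.56 to 14.1. A joint normalization of all 24 arrays is not given in the sources used here. RMA subtracts background and equalises array distributions, which compresses changes of dim genes. Arrays carry no read depth, and their number limits the precision.

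Of 24200 probe sets, 20760 with 1 gene symbol were kept, and of several for a gene the one with the highest mean. Array medians lay between 7.45 and 7.57. The stages were tested against each other in a single limma fit of all 24 arrays with a term for every stage (lmFit, then eBayes; two-sided; limma 3.58.1, R 4.3.3), with Benjamini-Hochberg adjustment over 19351 genes and a threshold of 0.05; the fit was tested on simulated data. Errors of changes are standard errors. The genes, lists and tests were chosen with earlier results of these data known. Named were the genes past the threshold in any comparison, Mmp2, Mmp14 and all Timp genes, the remaining ones at least once, and of each list of partners up to 5 of the largest changes with every activator and surface regulator. Lamb1 and Eln were named beyond that rule. Alternatives were other fits, scalings, filters, covariates and arrays left out, of which leaving out E16.5 replicates 5, 6 and 7 together was added after the data were seen. Promoters and gene order came from RefSeq tables (GRCm38.p6), not from the arrays. Tables and figures were made with Python 3.11.15, pandas 2.3.3 and matplotlib 3.10.9.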

Additional observations from a re-analysis of the deposited data

Results flagged for a closer look

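Within each stage, single arrays were compared with the other 7 by the gap to the nearest array divided by the range of the stage, against Dixon's 95% critical value. Over 147 groups of 8 arrays, 13 values in 11 genes exceeded it, where chance flags about 1 in 20 groups. High values stood apart in Adamts17 at E11.5 (replicate 2 at 10.99, nearest 9.79) and at E16.5 (replicate 3 at 9.62), and in Adamts3 at E11.5 (replicate 1 at 9.12) and at E12.5 (replicate 2 at 9.03). The same held for Adamts4 at E11.5 (replicate 1 at 7.82), Adamtsl1 at E11.5 (replicate 4 at 8.05) and Adamtsl3 at E16.5 (replicate 1 at 7.24). Mmp13 at E16.5 (replicate 5 at 11.07, nearest 8.13) had the widest gap of the 13 on the log2 scale, though not relative to its range. Low values stood apart in Adamts5 at E11.5 (replicate 5 at 7.82), Mmp14 at E16.5 (replicate 7 at 8.63, nearest 9.19) and Mmp16 at E16.5 (replicate 4 at 7.29). In genes at background, Mmp12 was low in E11.5 replicate 4 (5.52) and Mmp1b high in E12.5 replicate 3 (4.28).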

How the results depend on the processing

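Mmp2, Adamts1 and Adamts18 kept their direction and their call in both comparisons with E16.5 in all 41 alternatives, and Adamts9 in the comparison with E12.5. In the step within the folds the count was 1 in place of 0, Adamts1 lower, under renewed quantile normalization, centring on the 75th percentile or the median, removal of the dimmest 50% of genes, array weights, and without E16.5 replicates 1 to 4 or 5 to 8. From E12.5 to E16.5 the count of 17 fell to 4 under the test against 1.5-fold and to 11 with the hepatocyte list as a covariate. From E11.5 to E16.5 the count of 23 became 13 without the dimmest 50% of genes, 4 against 1.5-fold and 8 with the covariate. With the covariate, Adamts5, Adamts10, Adamts15, Mmp9, Mmp14, Timp1 and Timp2 lost their calls against E12.5. Against E11.5, calls were lost for Adamts9, Adamts10, Adamts12, Adamts15, Adamts16, Adamts19, Mmp7, Mmp8, Mmp9, Mmp14, Mmp16, Mmp27 and Timp4, among others. Leaving out 1 array at a time gave 0 to 1, 15 to 19 and 19 to 25 calls. The covariate, which itself rises with stage, turned the sign of Timp3 from E12.5 (0.056) and, from E11.5, of Adamts5 (0.23), Adamts6 (0.32), Timp2 (0.019) and Timp3 (0.0079); the cause was not tested. With the replicate number as a block (replicate block) the counts were 0, 17 and 22. Deviations of equally numbered arrays correlated by -0.28 to 0.09, so the numbers were not taken as pairs. Signal near background limits 11 of the 49 genes.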
